A study of Mus musculus with 17 samples.

Results

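The genes described here are 37 genes of glycolysis and of the response to low oxygen, measured in 17 mammary tumors of transgenic mice among 28785 genes of a 2-color microarray. The members were named by symbol from knowledge of the 2 pathways, and each was represented by the brightest of its probes. They fall into 5 factors and oxygen sensors, 20 genes of glucose uptake, glycolysis and lactate export, and 12 genes known as hypoxia responders. The tumors arose in FVB mice that carry either p75-CUX1 or p110-CUX1, short isoforms of the homeodomain factor CUX1, under the mouse mammary tumor virus promoter, which is active mainly in mammary epithelium. Of the 9 p75 tumors, 4 were labelled adenosquamous carcinoma, 3 solid carcinoma, 1 adenomyoepithelioma and 1 adenocarcinoma. Of the 8 p110 tumors, 6 were labelled solid carcinoma, 1 adenomyoepithelioma and 1 adenoma, so that 9 solid carcinomas stood against 8 tumors of other histology. Epithelial cells were captured from each tumor by laser microdissection, and their RNA, amplified in 2 rounds, was hybridized in dye swaps against a universal mouse reference RNA amplified in the same way. No tumor of a non-transgenic mouse and no normal gland was among the samples, and the ages of the mice are not in the labels. The study's text does not list p110-121 with the solid carcinomas, but its label names it one, and the label was followed here.

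Cells meet a fall in oxygen through hypoxia-inducible factors, which pair an oxygen-regulated alpha subunit (HIF-1α, encoded by Hif1a, or HIF-2α, encoded by Epas1) with the constant partner ARNT. Prolyl hydroxylases of the EGLN family mark the alpha subunit for destruction while oxygen is present, so that much of HIF control acts on protein and not on mRNA. The stabilized pair binds short elements with the core ACGTG or GCGTG and raises glucose transporters, most glycolytic enzymes, lactate dehydrogenase and genes of blood vessel growth and pH control. Carcinomas often run glycolysis at a high rate even where oxygen is present.

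The promoters of 5 members on which the results below turn are shown for these core elements. They are RefSeq promoters on build GRCm38.p6, from 250 bases before to 50 after the annotated start, and each lies on the plus strand. Capitals mark every ACGTG or GCGTG on either strand, so that a CACGT or a CACGC in the printed strand is marked as well. Pgk1 lies at chrX:106186850-106187149, Ldha at chr7:46845554-46845853 (the first of its 2 listed promoters), Slc16a3 at chr11:120948817-120949116, Car9 at chr4:43506776-43507075 and Arnt at chr3:95434140-95434439.
Pgk1: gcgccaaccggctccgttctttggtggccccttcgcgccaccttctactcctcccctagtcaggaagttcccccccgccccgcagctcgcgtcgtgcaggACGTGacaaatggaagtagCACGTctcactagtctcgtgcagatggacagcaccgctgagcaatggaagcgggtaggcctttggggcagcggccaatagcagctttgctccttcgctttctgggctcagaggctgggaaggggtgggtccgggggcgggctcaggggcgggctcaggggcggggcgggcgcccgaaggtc
Ldha: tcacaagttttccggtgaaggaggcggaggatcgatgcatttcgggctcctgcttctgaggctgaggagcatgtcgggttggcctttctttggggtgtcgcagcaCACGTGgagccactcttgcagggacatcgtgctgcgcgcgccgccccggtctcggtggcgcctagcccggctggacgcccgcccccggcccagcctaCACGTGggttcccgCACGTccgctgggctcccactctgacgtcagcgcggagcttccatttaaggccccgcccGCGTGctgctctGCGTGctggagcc
Slc16a3: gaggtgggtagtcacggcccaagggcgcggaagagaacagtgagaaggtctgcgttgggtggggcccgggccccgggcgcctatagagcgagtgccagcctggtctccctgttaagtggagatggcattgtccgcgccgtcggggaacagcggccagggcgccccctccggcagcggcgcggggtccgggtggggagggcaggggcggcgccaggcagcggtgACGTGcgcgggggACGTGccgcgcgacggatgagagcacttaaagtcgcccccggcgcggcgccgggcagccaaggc
Car9: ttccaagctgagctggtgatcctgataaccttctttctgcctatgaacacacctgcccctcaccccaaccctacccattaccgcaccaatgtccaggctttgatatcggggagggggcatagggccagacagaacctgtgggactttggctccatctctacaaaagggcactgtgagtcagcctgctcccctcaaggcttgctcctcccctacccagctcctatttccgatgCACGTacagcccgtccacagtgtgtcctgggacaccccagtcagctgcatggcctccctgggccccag
Arnt: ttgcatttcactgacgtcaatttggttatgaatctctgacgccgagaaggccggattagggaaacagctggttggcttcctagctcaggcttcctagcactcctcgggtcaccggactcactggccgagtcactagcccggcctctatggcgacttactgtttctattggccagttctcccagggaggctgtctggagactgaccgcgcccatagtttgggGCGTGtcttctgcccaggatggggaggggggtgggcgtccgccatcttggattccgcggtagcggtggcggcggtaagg
The Pgk1 and Slc16a3 windows each held 2 matches to ACGTG, the Ldha window held 5 to ACGTG and 2 to GCGTG, and the Car9 window held 1 to ACGTG. The Arnt window held 1 match to GCGTG. The palindrome CACGTG of the Ldha window reads as ACGTG on both strands and was counted once on each. A promoter was listed for 32 of the 37 members. ACGTG was found in 21 of them (65.6%, against 21.8% of all genes with a listed promoter) and GCGTG in 21 (65.6%, against 35.2%). Either core was found in 28 (87.5%, against 46.7%). The members were named as genes of these pathways, so a higher share than in all genes is in part built into the list. Counted by promoter, ACGTG was in 53.3% of the members' 45 and in 19.6% of all 32851. A match describes letters and not a bound site. Epas1, Ndrg1, Slc2a3, Bnip3l and Hmox1 were not listed.

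All values below are log2 ratios of tumor over reference, so a ratio below 0 says that the tumor signal was dimmer than the reference signal of the same probe, and ratios of different genes do not rank their levels. A gene is called measured in a tumor where all arrays of that tumor had the tumor color clearly over background by the scanner software's mark. Between 18.2% and 61.8% of probes passed in a tumor's color, and between 23 and 37 of the 37 members were measured in a tumor. The tumors p110-98, p110-225 and p110-374 had a weak tumor color: at the 95th percentile the reference was 11.5, 8.23 and 11.1 times brighter than the tumor, against at most 3.95 times in the other 14 tumors. All arrays of p110 tumors were scanned in one year and all arrays of p75 tumors in another, so transgene and scan year cannot be told apart. The tumor p110-121 went against its label of captured epithelial cells: it had the lowest ratio of the 17 tumors for each of 8 epithelial markers (Krt8 at -4.32 and Krt18 at -4.91, against at least 0.17 and -0.09 in the others), and 3 of the 8 were measured in it, against 6 to 8 elsewhere. Its summed epithelial marker signal was 12.1 on the log2 scale against 17.1 to 19.6 in the other 16 tumors, and its summed immune marker signal was the highest, at 18.3 against 12.8 to 17.8. Several results are given without it as well. In bulk RNA of this kind, fewer cells of a type and less RNA per cell cannot be told apart.

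Most members were lower in the tumors than in the reference. The median over the 17 tumors was below 0 for 32 of 37 members, against 42.2% of all genes, and for 32 of the 36 members measured in at least 5 tumors, against 49.4% of the 13894 genes measured as widely. Of the 37, 17 lay below 0 in every tumor, against 6.14% of all genes. By role, the median was below 0 for 3 of 5 factors and sensors, 18 of 20 glycolysis genes and 11 of 12 hypoxia responders. The reference is a pool of RNA from cell lines, so the ratio says nothing of how a tumor compares with normal gland.

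**Figure D1:**
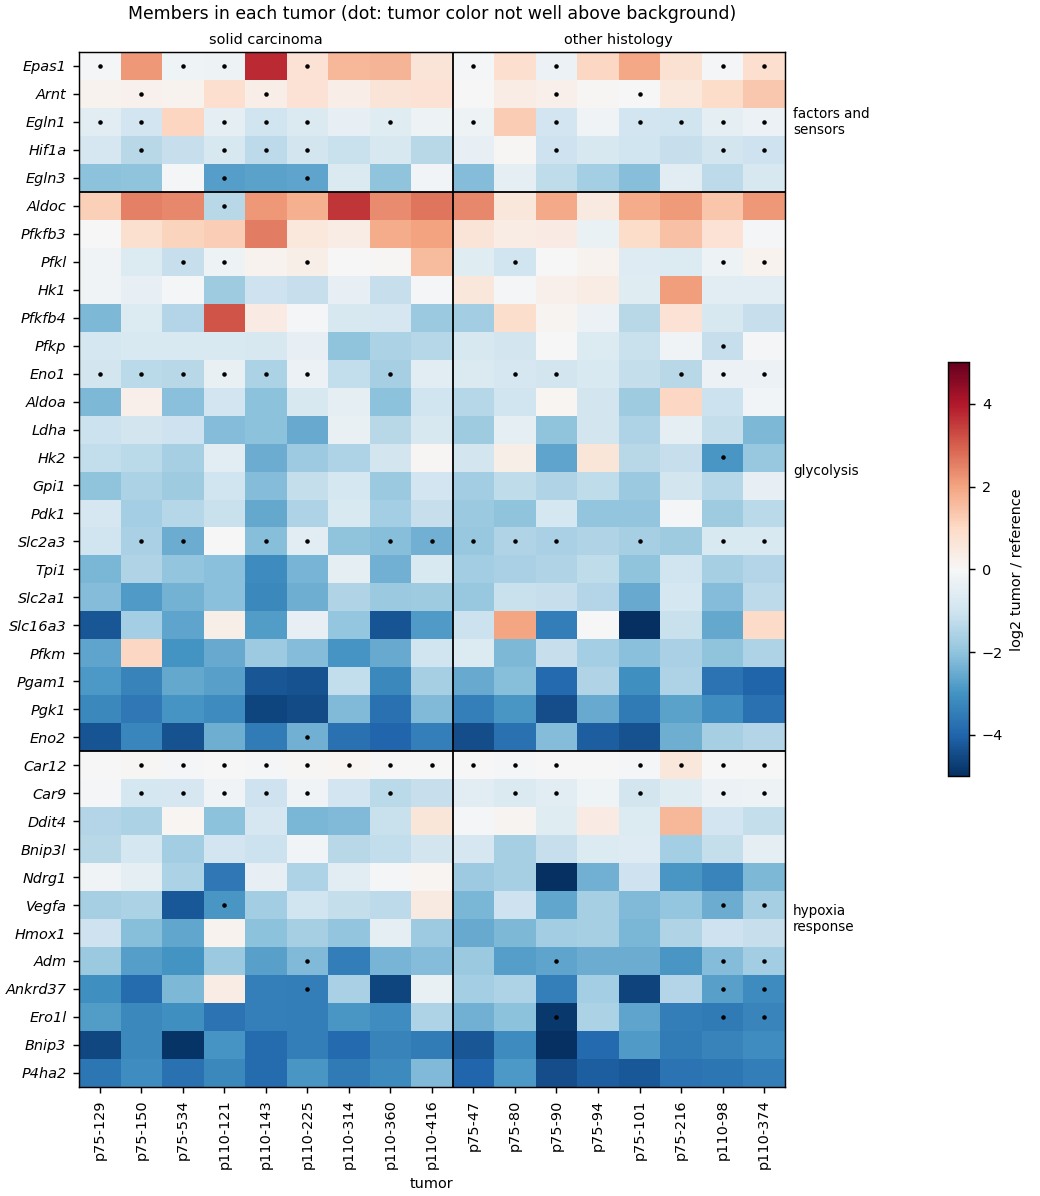
log2 ratio of tumor over reference for the 37 members (rows, grouped by role) in the 17 tumors (columns, grouped by histology and transgene), with a dot where the tumor color was not well above background. Most cells lie below 0, with Aldoc, Epas1 and Pfkfb3 as the rows with medians above 0.5.

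Among the factors and sensors, Hif1a was measured in 10 tumors. Over all 17 its lowest ratio was -1.40 in p75-150, where it was not measured, its median -1.01 and its highest 0.04 in p75-80. Epas1 was measured in 9 tumors, and its reference color was well above background in no tumor, so its ratios (from -0.28 in p75-90, where the tumor color was not measured either, to 3.74 in p110-143) have a dim denominator and their spread is not set against that of other members. Arnt ran from -0.01 in p75-101, not measured there, to 1.34. Egln3, a hydroxylase that HIF itself induces, was measured in 15 tumors and ran from -2.77 in p110-121, one of the 2 tumors in which it was not measured, to -0.09 in p75-534. Egln1, the main hydroxylase of the family, was measured in 5 tumors only and had a median of -0.51.

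Glycolysis genes were the best measured group, with 13 of 20 measured in all 17 tumors and 17 of 20 in at least 12. The glucose transporter Slc2a1 ran from -3.22 in p110-143 to -0.88 in p75-216, below 0 throughout, while Slc2a3, a related transporter, was measured in 5 tumors only (median -1.63). The hexokinases Hk1 and Hk2, which trap glucose in the cell, had medians of -0.41 and -1.36. Gpi1, the next enzyme, had a median of -1.44. The phosphofructokinase subunits Pfkl, Pfkm and Pfkp, which form the committed step, had medians of -0.16, -2.03 and -0.80. Pfkfb3 and Pfkfb4 make and remove the compound that activates that step, and their medians were 0.71 and -0.79.

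The later enzymes of the pathway included the lowest ratios of the group. Aldoa and Aldoc, which split fructose bisphosphate, stood on opposite sides of 0 with medians of -0.99 and 2.14. Aldoc was above 0 in the 16 tumors in which it was measured, and p110-121, where its ratio was -1.40, was not among them. Tpi1, Pgk1 and Pgam1, enzymes of the triose steps, had medians of -1.64, -3.23 and -2.88. Pgk1 ran from -4.61 in p110-143 to -2.19 in p110-416, and Pgam1 from -4.34 in p110-225 to -1.22 in p110-314. Eno1 was measured in 5 tumors (median -0.92), and Eno2, the enolase best known from neurons, had a median of -3.49. Ldha, which turns pyruvate into lactate, ran from -2.53 in p110-225 to -0.36 in p110-314, and Pdk1, a kinase that holds pyruvate out of the mitochondrial cycle, had a median of -1.56. Slc16a3, the lactate exporter MCT4, varied most of all members, from -5.14 in p75-101 to 1.98 in p75-80 (SD 1.97 over the 17 tumors, against a middle member's 0.73 and 0.61 for the middle gene measured in at least 5 tumors).

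Of the hypoxia responders, 6 of 12 were measured in all tumors. Bnip3 and Bnip3l, which mark mitochondria for removal, had medians of -3.49 and -1.09, and P4ha2, a collagen prolyl hydroxylase subunit, -3.62. Ero1l, an oxidase of the endoplasmic reticulum, and Ankrd37 had medians of -3.09 and -2.71. Adm, a vasodilator peptide, had a median of -2.47. Hmox1, which breaks down heme, and Ddit4, which restrains mTOR, had medians of -1.74 and -0.83, and Ddit4 reached 1.66 in p75-216. Vegfa, the growth factor for blood vessels, ran from -4.23 in p75-534 to 0.44 in p110-416 with a median of -1.65. Ndrg1, a stress-responsive growth regulator, ran from -5.01 in p75-90 to 0.11 in p110-416. The carbonic anhydrases Car9 and Car12, which act in pH control at the cell surface, were measured in only 6 and 2 tumors, with medians of -0.62 and 0.00.

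No tumor was high or low for all members. p75-216 and p110-416 each held the highest value of 6 members, and p75-534, p110-143 and p75-90 held the lowest of 7, 6 and 5, counting values that were not measured. p75-534, lowest for Vegfa, was the highest tumor for Egln3. In p75-150 the muscle form Pfkm stood at 1.04, with -0.70 in p75-47 as the next value. That tumor also had all 6 skeletal muscle markers measured, with the fast myosin Myh4 at 9.65 and the creatine kinase Ckm at 2.76, and its summed muscle marker signal was 18.9 on the log2 scale against 9.86 to 14.9 in the other tumors. The part of muscle RNA in Pfkm was not tested.

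Solid carcinomas were compared with tumors of other histology in a limma fit over all genes, with the transgene as a term, to ask whether these mRNAs differed with the growth pattern of the tumor. No gene of the 28785 passed an adjusted p of 0.05 (0%), and 2067 (7.18%) had an unadjusted p under 0.05. None of the 37 members passed, and 3 (Ndrg1, Slc2a1 and Eno2) had an unadjusted p under 0.05. The fitted difference was positive for 14 members and negative for 23, with a median of -0.17 against -0.01 for all genes. By role, the median differences were -0.23 for factors and sensors (2 of 5 positive), -0.30 for glycolysis (8 of 20 positive) and -0.05 for hypoxia responders (4 of 12 positive), and all 3 were above 0 under median centering of the arrays, used instead of loess (0.29, 0.94 and 0.97, with all genes at 0.094). The sign of the hypoxia responders' median turned as well with Feature Extraction signals (0.26) and with the tumor channel alone (0.21), and that of the factors with the tumor channel alone (0.08).

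The tumors of both histologies overlapped in the median of each role. The median glycolysis member of a tumor ran from -2.09 through -1.36 to -0.996 in the solid carcinomas (lowest, middle, highest) and from -1.73 through -1.07 to -0.90 in the others. The median hypoxia responder ran from -2.43 through -1.85 to -1.03 and from -2.62 through -1.83 to -1.65. The highest solid carcinoma in this measure was p110-416, above all 8 tumors of other histology.

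Ndrg1 had the largest difference between the histologies. It ran from -3.57 through -0.47 to 0.11 in the 9 solid carcinomas and from -5.01 through -2.32 to -1.03 in the 8 others. The groups overlapped, with 7 of 9 solid carcinomas and 1 of 8 others above the median tumor. The means were -0.92 ± 1.16 (SD, n = 9) and -2.55 ± 1.23 (SD, n = 8), and the fitted difference was 1.74 (SE 0.63, limma adjusted p = 0.693, unadjusted p = 0.014). A 2-sided exact permutation test of the means gave p = 0.0126, with no adjustment for the number of genes. The difference was positive under all 6 scalings tried, from 1.36 to 3.06, and within the p75 tumors (1.72) and the p110 tumors (1.77). The lowest solid value, -3.57, was that of p110-121, the tumor low for epithelial markers, and without it the difference was 1.96 (limma adjusted p = 0.574).

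Slc2a1 went the other way. It ran from -3.22 through -2.18 to -1.49 in solid carcinomas and from -2.54 through -1.39 to -0.88 in the others. Most of the 2 ranges overlapped. The means were -2.25 ± 0.54 (SD, n = 9) and -1.57 ± 0.58 (SD, n = 8), with a fitted difference of -0.72 (SE 0.29, limma adjusted p = 0.693, exact permutation p = 0.0238) that was 0.55 under median centering. Eno2 differed by -0.98 (SE 0.42, limma adjusted p = 0.693), from means of -3.49 ± 0.71 (SD, n = 9) in solid carcinomas and -3.04 ± 1.24 (SD, n = 8) in the others, and by 0.07 under median centering. Its plain difference in means was -0.45, with an exact permutation p of 0.361.

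Hk1 leaned toward the tumors of other histology as well. It ran from -1.77 in p110-121 through -0.42 to -0.08 in solid carcinomas and from -0.61 through 0.10 to 2.08 in the others, so that the groups overlapped between -0.61 and -0.08. The means were -0.70 ± 0.60 (SD, n = 9) and 0.19 ± 0.89 (SD, n = 8), and the plain difference of -0.89 had an exact permutation p of 0.0185, with no adjustment over genes. With the transgene in the fit it was -0.54 (SE 0.34, limma adjusted p = 0.706), -0.48 without p110-121, -0.36 without p75-216, which had the highest value, and 0.74 under median centering. Arnt, the constant HIF partner, had means of 0.46 ± 0.27 (SD, n = 9) and 0.43 ± 0.48 (SD, n = 8) and a fitted difference of -0.23 (SE 0.12, limma adjusted p = 0.694), which was -0.10 without p110-374 and 0.35 under median centering.

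Like Hk1 and Arnt, the remaining members given in full had an unadjusted limma p above 0.05 by histology. Slc16a3 ran from -4.30 through -2.63 to 0.30 in solid carcinomas and from -5.14 through -1.09 to 1.98 in the others, a fitted difference of -1.31 (SE 1.02, limma adjusted p = 0.743) that was -0.81 without p110-374. Hif1a ran from -1.40 through -1.09 to -0.78 and from -1.14 through -0.97 to 0.04 (difference -0.26, SE 0.18), with the lowest value, that of p75-150, not measured. Both genes overlapped widely between the histologies. Pgk1 ran from -4.61 through -3.23 to -2.19 and from -4.43 through -3.26 to -2.51, with a difference of 0.0036 (SE 0.40). Ldha ran from -2.53 through -1.07 to -0.36 and from -2.24 through -1.38 to -0.43 (0.18, SE 0.35). Vegfa ran from -4.23 through -1.58 to 0.44 and from -2.59 through -2.07 to -1.02 (0.025, SE 0.51), the solid carcinomas holding both its lowest and its highest value. Car9 ran from -1.33 through -0.88 to -0.08 and from -0.91 through -0.55 to -0.20 (-0.23, SE 0.21), but was measured in only 3 tumors of each group, and neither lower end was a measured value.

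**Figure D2:**
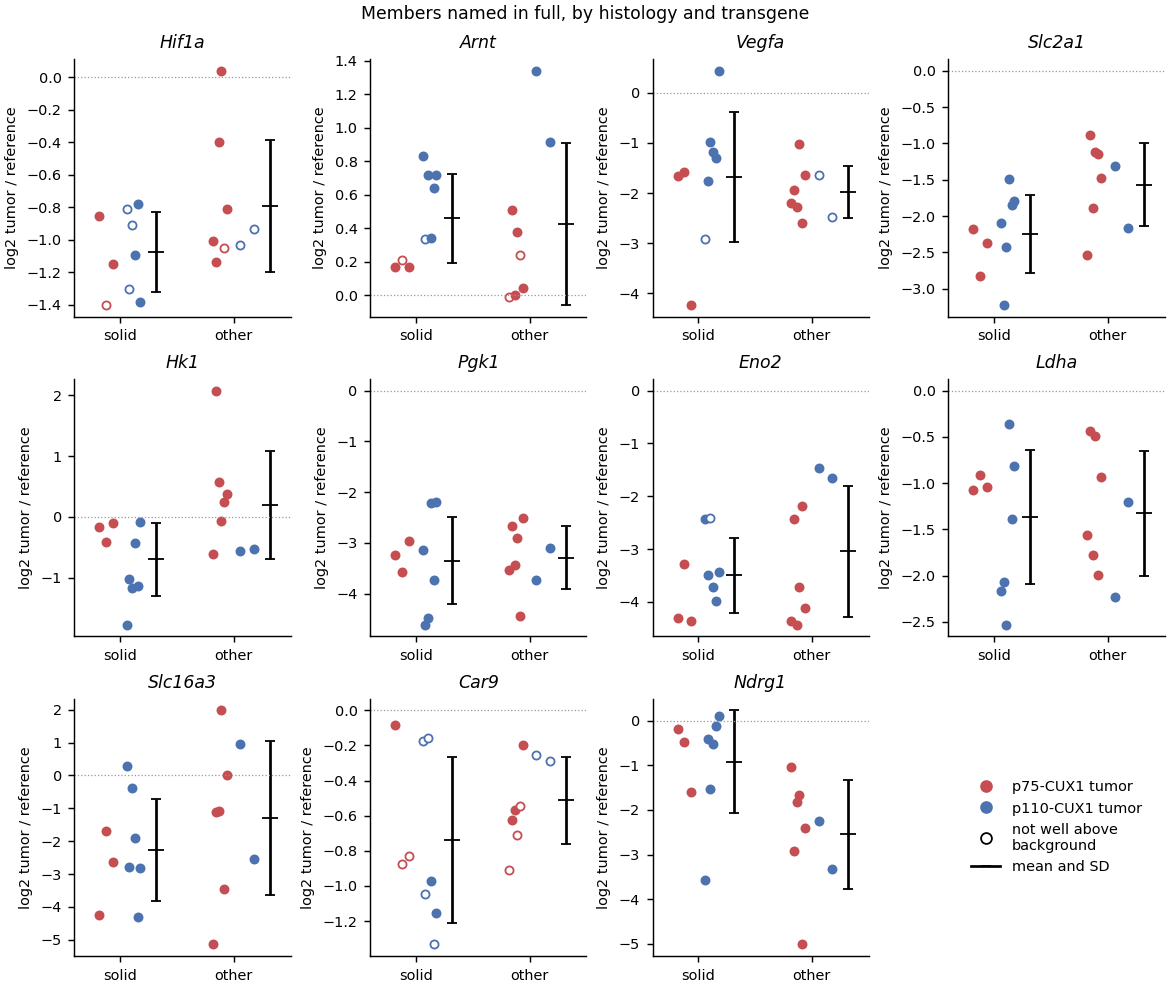
log2 ratio of tumor over reference of the 11 members given in full, by histology and transgene. Each point is 1 tumor, open where the tumor color was not well above background, bars mark group means with their SD, and Ndrg1 lies higher in most solid carcinomas.

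Markers of cell types also differed in level between the histologies, none of them past the adjusted threshold in limma, and their part in these results was not tested. Of 8 epithelial markers, 6 were lower in solid carcinomas (median difference -1.13, 0.02 under median centering), with summed signals of 17.1 to 18.4 in the solid carcinomas other than p110-121 (12.1) against 18.2 to 19.6 on the log2 scale. Without p110-121 the median difference was -0.69. All 8 were measured in at least 1 tumor and 3 of them in every tumor. All 6 squamous markers were lower (median -0.71), and 3 of 4 erythroid markers were higher (median 1.28). In each of these 3 lists, 3 markers had an unadjusted p under 0.05, and without p110-121 the erythroid list had 1. Of the 8 endothelial markers 6 had a positive difference (median 0.04), 1 of them with an unadjusted p under 0.05 (Kdr, 1.21), while Vwf and Esam stood at -1.34 and -1.10. Of the 5 adipocyte markers 4 had a positive difference (median 0.14), 1 of them at that level (Fabp4, 3.34). No fibroblast, immune or skeletal muscle marker reached it. Markers measured in no tumor included Pecam1 and Tie1 of the endothelial list, Lep and Ivl.

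The p75 and p110 tumors were compared by the transgene term of the same fit, which asks whether the 2 isoforms went with different levels of these genes. Of all genes, 323 passed the adjusted threshold (1.12%), 69 of them higher in p75 tumors (0.24%) and 254 lower (0.882%), and 4533 (15.7%) had an unadjusted p under 0.05. Among the 37 members, 1 passed (Arnt, lower in p75 tumors), beside the background of 1.12%, and 3 others (Hk1, Pfkl and Eno2) had an unadjusted p under 0.05. The fitted difference of p75 minus p110 was positive for 16 members and negative for 21, with a median of -0.08 against 0.00 for all genes. By role the medians were 0.06 for factors and sensors, -0.05 for glycolysis and -0.29 for hypoxia responders, and the first turned to -0.01 without background correction or with the tumor channel alone. Those of glycolysis and the hypoxia responders were above 0 with Feature Extraction signals (0.08 and 0.22), with the tumor channel alone (0.14 and 0.02) and under median centering (1.75 and 1.29).

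Between p75 and p110 tumors no marker passed the adjusted threshold in limma with loess values either, and the part of other cell types in these results was not tested. Of 8 epithelial markers 5 had a positive difference and 3 a negative one, with Krt14 (1.59) the 1 at an unadjusted p under 0.05. Of 8 endothelial markers 4 were positive and 4 negative (median -0.15), and 2 of the negative ones, Esam (-2.35) and Tek (-0.32), had such a p. So had 1 immune and 1 squamous marker, both lower in p75 tumors. The single markers with a value here and in the comparison by histology were named after their values were seen. The summed endothelial signal was 11.5 to 15.2 in p75 tumors and 14.9 to 18.3 in p110 tumors. It sums linear signals, so the brightest markers weigh most. The weak-color tumors p110-98, p110-225 and p110-374 stood at 18.3, 18.3 and 17.7, with 2, 4 and 3 of 8 markers measured. The other p110 tumors ran from 14.9 in p110-314 to 17.8 in p110-121. Without p110-121, the median difference of the epithelial markers went from 0.27 to -0.15, that of the factors and sensors from 0.06 to -0.02 and that of the hypoxia responders from -0.29 to -0.12, and Arnt was still the 1 member past the threshold.

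Under median centering, 19 members passed the threshold and all were higher in p75 tumors, beside 40.1% of all genes called and 27.5% called higher, with a member median of 1.42 beside 0.13 for all genes. They included Slc2a1, Hk1, Hk2, Gpi1, Pfkm, Pfkp, Aldoa, Tpi1, Pgk1, Pgam1, Ldha and Pdk1 of glycolysis. 11535 genes passed under that centering, 7913 higher and 3622 lower in p75 tumors. Without the 3 tumors of weak color, which are all p110 tumors, the same centering called 0 members and 4 genes (0.0139%).

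Arnt was measured in 13 tumors. It stood at 0.00, 0.37, 0.24, 0.04, -0.01, 0.17, 0.21, 0.51 and 0.17 in the p75 tumors 47, 80, 90, 94, 101, 129, 150, 216 and 534. In the p110 tumors 98, 121, 143, 225, 314, 360, 374 and 416 it stood at 0.91, 0.83, 0.33, 0.72, 0.34, 0.64, 1.34 and 0.72. Those of p75-90, p75-101, p75-150 and p110-143 were not measured values. The highest values belonged to p110-374 and p110-98, both of weak color, and the groups overlapped between 0.33 and 0.51. The means were 0.19 ± 0.17 (SD, n = 9) and 0.73 ± 0.32 (SD, n = 8), and the fitted difference was -0.64 (SE 0.12, limma adjusted p = 0.0242, exact permutation p = 0.000535 for the plain difference of -0.54). Without the 3 tumors of weak color it was -0.39 (limma adjusted p = 0.663), and within solid carcinomas -0.41 (0.898). Under median centering it was 0.15. The difference lost the threshold without p75-534 (limma adjusted p = 0.0504), p110-98 (0.101) or p110-374 (0.118). The 3 other Arnt probes, measured in 3, 0 and 4 tumors, differed by 0.20, -0.01 and -0.05 between the means of p75 and p110 tumors, so the difference rested on 1 probe.

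Hk1 had the largest positive fitted difference of p75 minus p110 tumors among the members given in full. It ran from -0.61 through -0.06 to 2.08 in the p75 tumors and from -1.77 through -0.79 to -0.08 in the p110 tumors. The highest value was that of p75-216, the adenocarcinoma, and the groups overlapped below it. The means were 0.22 ± 0.79 (SD, n = 9) and -0.84 ± 0.54 (SD, n = 8), with a fitted difference of 0.82 (SE 0.34, limma adjusted p = 0.236, exact permutation p = 0.0023 with no adjustment over genes). It was positive under all 6 scalings, from 0.80 to 2.71, and passed the threshold with the tumor channel alone (2.02, limma adjusted p = 0.0158). Over all 18 alternatives, which also varied probes, dyes and tumors, the lowest difference was 0.036. Without p110-121, which had its lowest value, it was 0.74. The 5 other Hk1 probes differed in sign, from -0.33 to 0.26.

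Eno2 differed by -1.27 (SE 0.42, limma adjusted p = 0.128), running from -4.43 through -4.11 to -2.18 in p75 tumors and from -3.98 through -2.93 to -1.47 in p110 tumors, and by 0.36 under median centering. The groups overlapped over much of their range. The difference shrank to -0.57 without the 3 tumors of weak color, among them p110-374 and p110-98 with the 2 highest values (-1.47 and -1.65). Pfkl differed by -0.74 (SE 0.27, limma adjusted p = 0.184), and by 0.19 under median centering. Slc16a3 ran from -5.14 through -1.71 to 1.98 and from -4.30 through -2.23 to 0.95, a difference of -0.79 (SE 1.02) that ranged from -1.34 without p110-98 to -0.29 without p110-374, both of weak color. The remaining members given in full did not pass the threshold: Hif1a 0.06 (SE 0.18), Vegfa -0.64 (SE 0.51, and -0.11 without p75-534), Slc2a1 -0.08 (SE 0.29), Pgk1 0.15 (SE 0.40), Ldha 0.54 (SE 0.35), Car9 -0.02 (SE 0.21) and Ndrg1 0.28 (SE 0.63). Car12 was well above background on 5 of 18 p75 arrays and none of 20 p110 arrays, and no fold is given.

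**Figure D3:**
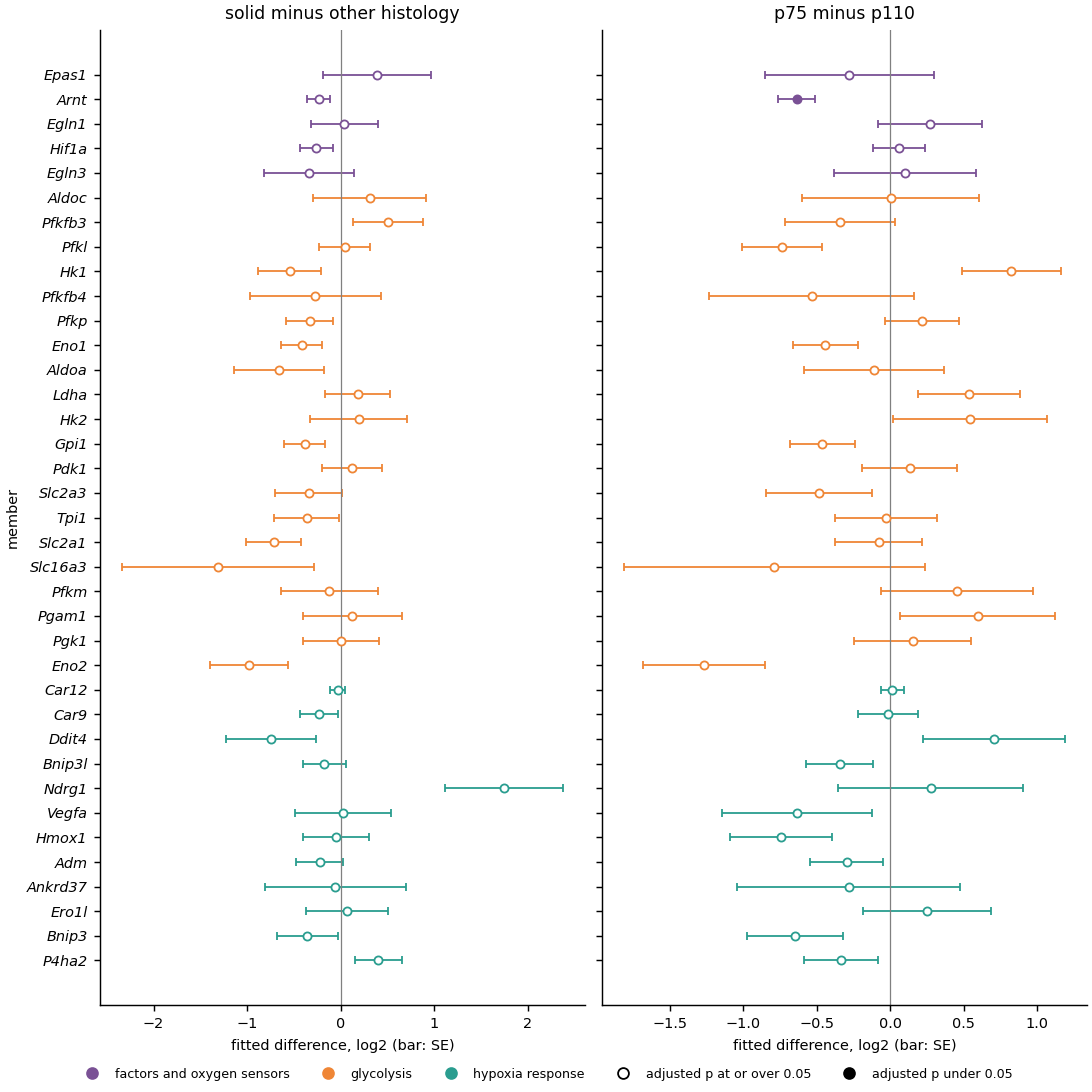
Fitted log2 differences of the 37 members, solid minus other histology at the left and p75 minus p110 at the right, with bars of 1 SE, colored by role. Arnt, at -0.64 in the right panel, is the single filled point (adjusted p under 0.05).

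The difference between solid and other tumors was then compared between the transgenes with an interaction term. Of all genes, 1 passed the threshold and 2172 (7.55%) had an unadjusted p under 0.05, and none of the members passed in limma. The 1 member with an unadjusted p under 0.05 was Arnt, whose solid minus other difference was -0.01 in p75 and -0.53 in p110 tumors (interaction 0.52, SE 0.22, limma adjusted p = 0.635). The 2 p110 tumors of other histology are both of weak color.

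Pairs of members were related across the 17 tumors to see which moved together. Of 8 members chosen for their places in the pathway and measured in at least 12 tumors (Pgk1, Ldha, Slc2a1, Vegfa, Egln3, Ndrg1, Bnip3 and Ddit4), 28 pairs were computed, and 20 had a positive r. Only Pgk1 with Ldha passed adjustment over the 28 pairs, with Pearson's r = 0.80 (permutation p = 9e-05, adjusted 0.00252) and Spearman's rho = 0.80 (permutation p = 0.00015, adjusted 0.0042). Of the 8 tumors below the median for each gene, 7 were below it for both, the exceptions being p75-150 (low for Pgk1 alone) and p110-121 (low for Ldha alone). p110-225 had -4.47 for Pgk1 and -2.53 for Ldha, and p110-314 had -2.22 and -0.36. Without p110-143 and p110-225, the 2 tumors farthest from the Pgk1 median, r was 0.72. It was 0.79 within the p75 tumors (exact permutation p = 0.00975, n = 9), 0.83 within the p110 tumors (exact permutation p = 0.0135, n = 8) and 0.76 without the 3 tumors of weak color, and 0.86 without p110-121. Over 10 other ways of making the values or choosing the tumors, r lay between 0.66 and 0.96. No pair passed adjustment with the tumor channel alone or with the Cy5 arrays alone. Pairs with members outside the 8 were not tested. Among them, Pgk1 had a higher r with Pgam1 (0.91) than with Ldha, and Arnt with Eno2 had r = 0.79.

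Of the 28 pairs, 6 had an unadjusted Pearson p under 0.05, and 4 of these held Egln3. Its r was 0.63 with Ldha (permutation p = 0.00915, adjusted 0.099; Spearman's rho = 0.66, permutation p = 0.0052, adjusted 0.0728) and 0.60 with Pgk1 (permutation p = 0.0116, adjusted 0.099; Spearman's rho = 0.60, permutation p = 0.0126, adjusted 0.0802), and neither passed adjustment. Without p110-121 these were 0.58 and 0.67. They were 0.50 and 0.35 within the p75 tumors and 0.70 and 0.74 within the p110 tumors. The remaining pairs of the 6, beside Pgk1 with Ldha, missed adjustment too and were Egln3 with Slc2a1 (r = 0.59, permutation p = 0.0141, adjusted 0.099; Spearman's rho = 0.59, permutation p = 0.0143, adjusted 0.0802) and with Ddit4 (r = 0.55, permutation p = 0.0227, adjusted 0.127; Spearman's rho = 0.53, permutation p = 0.0286, adjusted 0.134), and Vegfa with Ndrg1. That last pair had r = 0.52 (permutation p = 0.0348, adjusted 0.162; Spearman's rho = 0.60, permutation p = 0.0124, adjusted 0.0802), with 0.67 without p75-534 and p110-416, the tumors farthest from the Vegfa median. It was 0.20 within the p75 tumors (exact permutation p = 0.549, n = 9) and 0.80 within the p110 tumors (exact permutation p = 0.00992, n = 8), and the difference between them was not tested. Vegfa, a member often read as a marker of hypoxia, had r = 0.18 with Pgk1 (permutation p = 0.503, adjusted 0.745; Spearman's rho = 0.12, permutation p = 0.652, adjusted 0.761). Slc2a1 and Ndrg1, the 2 members with the smallest unadjusted p by histology, had r = -0.45 (permutation p = 0.0719, adjusted 0.25; Spearman's rho = -0.44, permutation p = 0.0819, adjusted 0.229), and -0.50 without p110-121. Their r was -0.72 within the p75 tumors (exact permutation p = 0.0185, n = 9) and -0.04 within the p110 tumors (exact permutation p = 0.926, n = 8). These 2 genes differed by histology in opposite directions in the same tumors, so their r is not separate from that comparison. The number of pairs past adjustment was 28 under median centering and 16 with arrays scaled to the same spread.

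**Figure D4:**
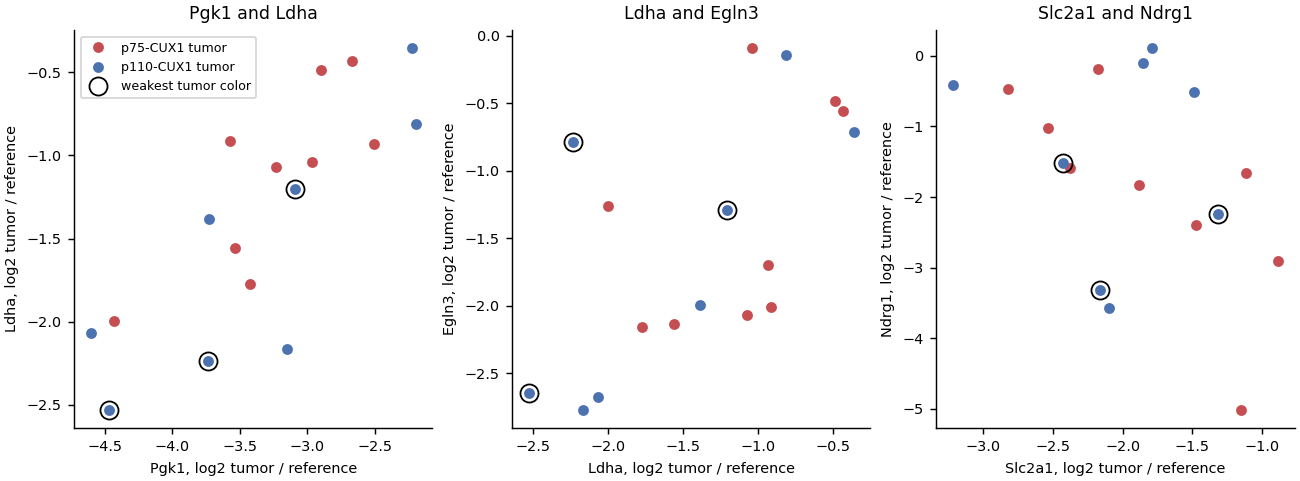
Pairs of members across the 17 tumors, each axis a log2 ratio of tumor over reference and each point 1 tumor, colored by transgene, with rings around the 3 tumors of weak color. Pgk1 and Ldha rise together (r = 0.80), while Slc2a1 and Ndrg1 lean the opposite way (r = -0.45, with -0.72 within p75 and -0.04 within p110 tumors).

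The study drew the tumors in clusters by their Wnt gene expression. These clusters are not in the labels, so values by cluster are given without a test. The cluster highest in Wnt genes held 5 tumors, the middle one 5 and the lowest 7. Of the 37 members, 2 (Slc16a3 and Car9) were higher in all high-Wnt than in all low-Wnt tumors, where 0.959% of all genes were, and none was lower in all, where 0.695% were.

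Slc16a3 stood at -1.07, 1.98, 0.01, -0.40 and 0.95 in the high-Wnt tumors p75-47, p75-80, p75-94, p110-225 and p110-374. In the low-Wnt tumors it ran from -5.14 through -2.77 to -1.71, and in the medium-Wnt tumors from -4.26 through -2.54 to 0.30. The lactate exporter was thus above every low-Wnt tumor in each high-Wnt tumor. The high-Wnt tumors that are not adenosquamous, p110-225 and p110-374, are both of weak color, and no low-Wnt tumor is. The lowest value of all, -5.14, was that of p75-101, the low-Wnt adenosquamous carcinoma. The medium-Wnt tumors overlapped both. Under median centering and with arrays scaled to the same spread, the high-Wnt and low-Wnt tumors overlapped. Car9 ran from -0.71 through -0.26 to -0.16 in high-Wnt and from -1.33 through -0.97 to -0.83 in low-Wnt tumors, but was measured in only 2 tumors of each cluster, and the clusters overlapped with 5 of 8 other ways of making the values. Ndrg1 leaned the other way, from -2.39 through -1.83 to -1.52 in high-Wnt and from -1.59 through -0.47 to 0.11 in low-Wnt tumors. Of the 7 low-Wnt tumors 6 are solid, and of the 5 high-Wnt tumors 1 is, so cluster and histology largely coincide.

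**Figure D5:**
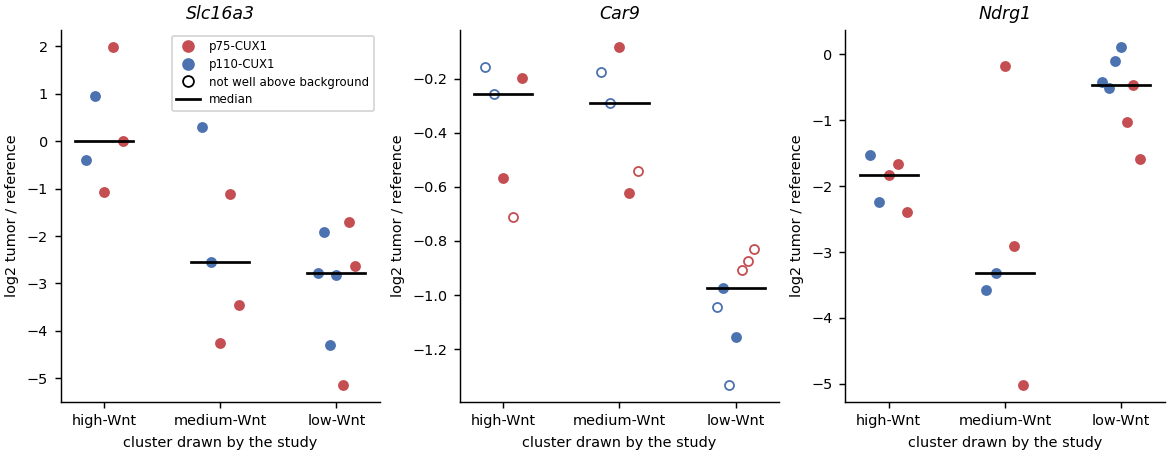
log2 ratio of tumor over reference of Slc16a3, Car9 and Ndrg1 in the clusters drawn by the study (high-Wnt n = 5, medium-Wnt n = 5, low-Wnt n = 7), each point 1 tumor with a line at the median. The 5 high-Wnt tumors lie above the 7 low-Wnt tumors for Slc16a3, with medians of 0.01 and -2.77.

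Other genes of the same pathways did not pass the threshold either with loess values. In limma, 0 of 21 further glycolysis genes, 0 of 35 further hypoxia genes, 0 of 6 pentose phosphate genes and 0 of 21 genes of the tricarboxylic acid cycle and of pyruvate dehydrogenase with its regulators were called in either comparison. At an unadjusted p under 0.05, where 7.18% of all genes lay, the solid comparison gave 1 further glycolysis gene, 2 further hypoxia genes and 1 pentose phosphate gene, all lower in solid carcinomas. From the last list it gave 3, all higher: Dlat (1.36), a subunit of pyruvate dehydrogenase, Ogdh (0.21), a cycle enzyme, and Pdk4 (3.29), a kinase that inhibits pyruvate dehydrogenase. The p75 comparison, with 15.7% of all genes at that level, gave 2 lower glycolysis genes, 1 higher and 3 lower hypoxia genes and 1 lower pentose phosphate gene. From the last list it gave the subunit Pdha1 (1.20) and the cycle enzymes Cs (0.63), Sucla2 (1.07) and Fh1 (0.68), which were higher in p75 tumors, and the inhibiting kinase Pdk2 (-2.17), which was lower. The genes named from this list were chosen after their values were seen. The list, which holds both enzymes that burn pyruvate and kinases that hold it back, had a median difference of 0.42 between p75 and p110 tumors, positive for 18 of 21, against 0.00 for all genes and -0.05 for the glycolysis members. That median was positive under all 6 scalings tried, from 0.26 to 1.83. Without p110-121 it was 0.25, with 15 of 21 positive, and without the 3 tumors of weak color 0.28, with 16 of 21. The calls between p75 and p110 tumors changed with the scaling: under median centering 7 further glycolysis, 14 further hypoxia, 5 pentose phosphate and 15 genes of the last list passed (of 21, 35, 6 and 21), beside 40.1% of all genes, and with the tumor channel alone 0, 1, 1 and 6, beside 6.06%. Between solid and other tumors it was 0.21, positive for 16 of 21.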

How the data were processed

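Epithelial cells of 17 tumors were profiled on 38 Agilent whole mouse genome arrays of 2 colors (45018 spots, 41174 probes, 28785 genes), 2 arrays per tumor with dyes swapped and 4 for p110-143 and p110-360. The deposited scanner files hold spot intensity and local background as Feature Extraction gave them. The authors also deposited 1 log2 tumor/reference ratio per spot and tumor, made with limma. Those log2 values were the main values here, and they matched normexp background correction (offset 50), loess and the mean over a tumor's arrays, recomputed from the scanner files, to within 4.98e-08. Both dye orientations enter each value. The amplification, done in 2 rounds, and the reference's own level of a gene enter each ratio.

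Each gene was represented by its brightest probe. For each gene limma 3.58.1 in R 4.3.3 was fitted on histology (solid or other) and transgene over all 17 tumors, with Benjamini-Hochberg adjustment over the 28785 genes and a threshold of 0.05. The labels do not say whether tumors came from separate litters, and p-values measure the spread between these tumors. The number of arrays and of tumors limits precision. Permutation tests were 2-sided, exact, or with 100000 resamples for relations (Python 3.11.15, scipy 1.17.1). Tested on simulated data of 28785 genes, the fit recovered 57% and 82% of log2 differences of 1 and 2 between the histologies. Between the transgenes it recovered 64% and 82%. Of the unchanged genes, 7 and 12 were called in the 2 comparisons. The changed genes were drawn at random from all genes, with independent normal noise of each gene's own spread. These shares are therefore not those for the members, whose middle SD was 0.73 against 0.61 for genes measured in at least 5 tumors.

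The members and all lists were chosen with earlier results of these data known. Given in full were members past the threshold, the 3 largest differences in each comparison among members measured in at least 5 tumors, and Hif1a, Vegfa, Slc2a1, Car9, Pgk1 and Ldha, 11 in all. Names are those of the array's design, so Ero1l is now Ero1a, and 22951 probes (55.7%) were matched to RefSeq. Gapdh had no probe in the table used. Of 19 members with several probes, 12 had over 1 measured probe, and those probes disagreed in sign for Ldha, Aldoc and Bnip3l by histology and for Hk1, Ldha, Gpi1, Pfkp, Ero1l, Pdk1 and Bnip3l by transgene. Alternatives covered signal, background, scaling, filter, probe rule, dye, covariate, subset, batch, variance estimate and each tumor left out. Spots marked as outliers (0.545%) stayed in the main values. The values of 1 marker gene are not reported here.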

Additional observations from a re-analysis of the deposited data

Results flagged for a closer look

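Each member was checked for a tumor standing apart from its group of 8 or 9, by the gap to the nearest tumor relative to the group's range (Dixon's test). Of 148 such checks, 16 passed the 95% value, where chance alone gives about 1 in 20 for independent checks of normal values. The groups share tumors, so these checks are not independent, and some values were flagged in 2 groups. The count can therefore not show an excess over chance. No explanation was tested.

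p110-121 stood apart for 3 members. In that tumor 3 of 8 epithelial markers were measured, with a summed signal of 12.1 on the log2 scale against 17.1 to 19.6 in the others, and the part of this in the 3 members was not tested. Pfkfb4 was 3.15 there (nearest tumor 0.40) among both the solid carcinomas and the p110 tumors, Aldoc, which was not well above background there, was -1.40 (nearest 1.20 among solid carcinomas and 1.39 among p110 tumors), and Ndrg1 was -3.57 (nearest -1.59 among solid carcinomas). In p75-216, Hk1 was 2.08 (nearest 0.58) and Car12 was 0.55 (nearest 0.00 in tumors of other histology and 0.06 in p75 tumors), each in both groups it belongs to, but Car12 was not well above background in p75-216, so that its value there is no measured level. In p110-416, Pfkl was 1.59 among p110 tumors (nearest 0.29), and Ero1l was -1.55 (nearest -2.78 among solid carcinomas and -2.90 among p110 tumors).

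In p75-534, Vegfa was -4.23 among p75 tumors (nearest -2.59) and Egln1 was 1.09 among solid carcinomas (nearest -0.24). Egln1 was 1.28 in p75-80 among tumors of other histology (nearest -0.18), and it was measured in 5 tumors in all. Pfkm was 1.04 in p75-150 among solid carcinomas (nearest -0.99), the tumor with all 6 muscle markers measured. No member's difference by histology passed the test of a difference between the transgenes.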

How the results depend on the processing

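The absence of called members between the histologies held under all 19 alternatives and each tumor left out, and 0 members passed the interaction in 11 alternatives. Within p110 tumors 1 gene of the whole table passed between the histologies. Between p75 and p110 tumors, the 1 called member (Arnt) became 19 under median centering, 3 (Arnt, Eno2 and Gpi1) with Cy5 arrays, 2 (Arnt and Slc2a3) within tumors of other histology, and 0 with arrays scaled to the same spread, the mean of all probes, Cy3 arrays, no covariate, within solid carcinomas, without the 3 tumors of weak color, and, chosen after seeing the data, without those tumors under median centering or with the tumor channel alone. With each tumor left out it was 0 to 1. With the tumor channel alone the 1 member was Hk1. The 323 genes called became 11535 under median centering, 6 with scaled arrays, 1744 with the tumor channel alone, 633 with the filter on measured probes, 578 and 191 with Cy5 and Cy3 arrays, 132 with no covariate, 0 within solid carcinomas, 1528 within the others, 521 with scan day as a block, 0 without the weak tumors and 4 under median centering without them. With each tumor left out they ranged from 8 (without p110-374) to 1448 (without p110-314). The 1 pair past adjustment became 2 with Feature Extraction signals, 28 under median centering, 16 with scaled arrays, 0 with the tumor channel alone, 0 with Cy5 and 2 with Cy3 arrays, settings chosen after seeing the data. Leaving out p110-121 for list medians and relations was also chosen after seeing the data. The causes were not tested.

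Signs turned as follows. Solid minus other under median centering was 0.35 for Arnt, 0.21 for Car9, 0.075 for Eno2, 0.065 for Hif1a, 0.74 for Hk1 and 0.55 for Slc2a1. With the tumor channel alone it was 0.25 for Car9, 0.17 for Hif1a and -0.14 for Pgk1. With scaled arrays it was -0.058 for Ldha, -0.68 for Pgk1 and -0.37 for Vegfa. With no covariate, and as the plain difference of the permutation test, it was 0.032 for Arnt, -0.043 for Ldha and -0.060 for Pgk1. Without the weak tumors it was 0.24 for Arnt under median centering and 0.24 with the tumor channel alone, -0.011 for Pgk1 and -0.54 for Vegfa, the last 2 as within p75 tumors. Pgk1 was -0.068 with Cy3 arrays, and Vegfa -0.080 without background correction and -0.17 with Cy5 arrays. With a tumor left out Pgk1 ranged from -0.13 to 0.10 and Vegfa from -0.27 to 0.56.

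p75 minus p110 under median centering was 0.15 for Arnt, 0.79 for Car9, 0.36 for Eno2, 1.02 for Slc16a3, 1.74 for Slc2a1 and 0.99 for Vegfa. With Feature Extraction signals it was 0.85 for Car9 and 0.11 for Vegfa. With scaled arrays it was 0.016 for Car9, -0.0026 for Pgk1 and 0.062 for Slc2a1. With the tumor channel alone it was 0.33 for Car9, and 0.31 for Arnt without the weak tumors. With Cy3 arrays it was 0.019 for Car9 and 0.49 for Slc2a1, and with Cy5 arrays -0.30 for Pgk1. With no covariate, and as the plain difference, it was 0.079 for Car9, -0.45 for Ndrg1 and 0.22 for Slc2a1. Within solid carcinomas it was 0.21 for Car9 and -0.088 for Hif1a, and within the others 0.23 for Slc2a1 and 0.12 for Vegfa. Without the weak tumors it was 0.34 for Car9, -0.060 for Hif1a and -0.077 for Pgk1, and Hif1a was -0.0056 without background correction. With a tumor left out the ranges were -0.18 to 0.056 for Car9, -0.0092 to 0.15 for Hif1a, -0.0085 to 0.49 for Ndrg1 and -0.28 to 0.052 for Slc2a1. No paired analysis was possible because the tumors come from different mice and carry no shared number. Leaving out 1 tumor also moved these differences by over 1.5 times. By histology, Car9 was -0.40 without p75-129, Hif1a -0.17 without p75-80, Ldha 0.028 and 0.34 without p110-374 and p110-98, and by transgene Pgk1 ranged from 0.018 without p110-143 to 0.29 without p110-416. Signal over background limits Car12, Slc2a3, Eno1 and Egln1, measured in 5 tumors or fewer.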
